A study of Mus musculus with 19 samples.

Results

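Among 19 libraries of cultured mouse microglia, 4 carried low levels of transcripts that define macrophages, and they are described here against the other 15. They are the libraries with the file numbers 57, 58, 59 and 60, and each comes from a different group: 57 is wild-type (WT) vehicle replicate 4, 58 is WT LPS replicate 5, 59 is APP vehicle replicate 5 and 60 is APP LPS replicate 5. The 4 were selected on their low levels of C1qc, Gpr34, Cx3cr1 and Trem2 in these same files. Every difference between the 4 and the 15 is therefore a description, given with its standard error (SE) and with no p-value, and the counts of genes that pass the threshold support nothing about the choice.

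The cells were adult microglia, the resident macrophages of the brain, taken from cortices of C57BL/6 mice of 10 to 11 months and kept in culture for 4 weeks in 10% serum with 5 ng/mL of macrophage colony-stimulating factor (M-CSF), which all groups received. APP mice carried hAPPJ20 (PDGFAPPSw,Ind), a transgene for human amyloid precursor protein that bears the Swedish and Indiana mutations of familial Alzheimer disease and is driven by a PDGF promoter, and WT mice did not. Vehicle was medium alone. Lipopolysaccharide (LPS), the bacterial ligand of Toll-like receptor 4, was given at 100 ng/mL for 6 h and followed by 16 h in fresh medium. Besides 57 to 60 there were 3 WT vehicle libraries and 4 in each of the groups WT LPS, APP vehicle and APP LPS. Nothing in the labels ties a library to its own animal or culture. The p-values therefore measure only how these libraries vary, and some of that spread may be technical. The pairs 57 and 58, and 59 and 60, have consecutive numbers, and whether a pair shares one preparation is not stated.

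Microglia depend on signals through the M-CSF receptor Csf1r and on transcription factors such as PU.1 (gene Spi1), Irf8 and Maf. They express the complement subunits C1qa, C1qb and C1qc, the fractalkine receptor Cx3cr1, the purinergic receptor family member Gpr34, the lipid-sensing receptor Trem2 with its adaptor Tyrobp, and abundant lysosomal proteases. Cultures of adult cortex can also hold fibroblasts, pericytes, endothelial cells and astrocytes.

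The 4 overlapped the others in depth. Their totals were 17712123 to 25502823 counts, against 13065257 to 31248988 in the other 15, and 13195 to 14317 genes had at least 1 count, against 11161 to 14333. Mitochondrially encoded transcripts took 2.64% to 3.38% of counts in the 4 and 2.38% to 5.24% in the others. On the first principal component, with 15.4% of the variance, the 4 lay at 41.8 to 75.3 and the other 15 at −60.2 to 36.9. APP LPS replicate 1 stood apart on the second component, at −123 against −23.6 to 34.6 for all others. Of the Y-linked transcripts, Ddx3y had at most 1 count in each of the 4, as in 7 of the other 15, and over 100 counts in the remaining 8. Eif2s3y was at most 0.0758 CPM in the 4. Kdm5d did not follow: it was at 21.7, 10.5, 2.47 and 4.28 CPM in libraries 57 to 60, and 57 lay within the 20.7 to 32.7 CPM of the 8 libraries with Ddx3y. Sex as a term in a fit means this split by Ddx3y, and the part of sex was not tested in any other way.

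Levels below are in CPM, the share of a library's counts scaled to a common total, and differences are on the log2 scale from edgeR with the genotype-treatment group as a term, as libraries 57 to 60 minus the other 15. The 4 markers were low in the 4 libraries, but not to the same degree. C1qc stood at 242, 139, 181 and 89.9 CPM in libraries 57, 58, 59 and 60, against a lowest value of 418, a median of 667 and a highest of 1194 in the other 15. All 4 lay below all 15, and the log2 difference was −2.21 ± 0.20 (SE). Trem2 was at 51.6, 20.1, 18.6 and 11.5 CPM, against 35.8, 133 and 232 as lowest, median and highest of the others (−2.38 ± 0.28). Cx3cr1 was at 12.9, 12.6, 21.1 and 8.51 CPM against 8.70, 74.1 and 255 (−2.51 ± 0.55). For both genes each of the 4 was the lowest library of its own group, while the ranges of the 4 and the 15 overlapped. Gpr34 was near absent in 3 of the 4, with 0, 0.265, 5.83 and 0 CPM, but it was low in some other libraries as well, which ran from 0 through a median of 6.04 to 36.8 CPM. It did not pass the threshold (−3.76 ± 1.42).

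**Figure D1:**
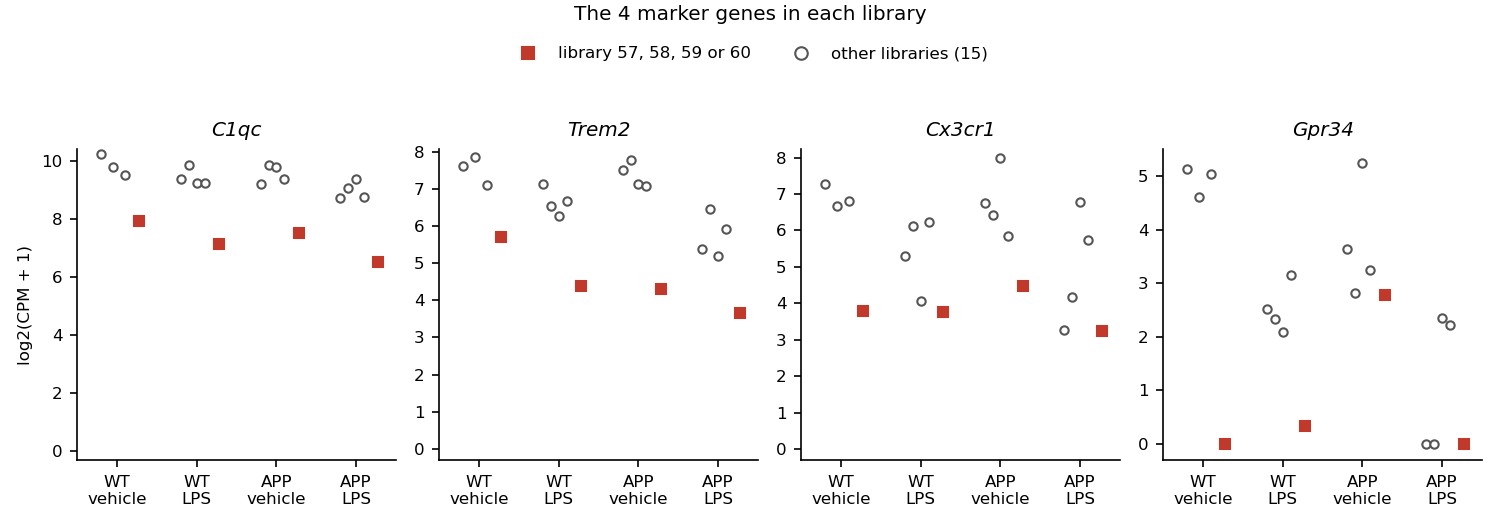
Levels of C1qc, Trem2, Cx3cr1 and Gpr34 in each of the 19 libraries, as log2(CPM + 1), by genotype and treatment. Squares are libraries 57 to 60 and circles the other 15. For C1qc, Trem2 and Cx3cr1 the square is the lowest point of its group, and for Gpr34 the square of APP LPS lies level with other libraries at 0.

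Over all genes, 1165 of 14113 tested had an adjusted p under 0.05 (8.25%): 754 were lower (5.34%) and 411 higher (2.91%) in libraries 57 to 60. The median difference over all tested genes was 0.05. Each of the 4 lay below every other library of its own group for 607 genes (4.3%) and above them for 492 genes (3.49%). All 4 lay below all 15 for 308 genes (2.18%) and above all 15 for 181 genes (1.28%). The word called is used below for a gene past the adjusted threshold. The number called rests on all 4 libraries: it was 795, 728, 634 and 628 without 57, 58, 59 and 60 in turn. It was 721 with the sex of the library as a term (538 lower, 183 higher) and 476 when the counts of consecutively numbered libraries were summed.

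**Figure D2:**
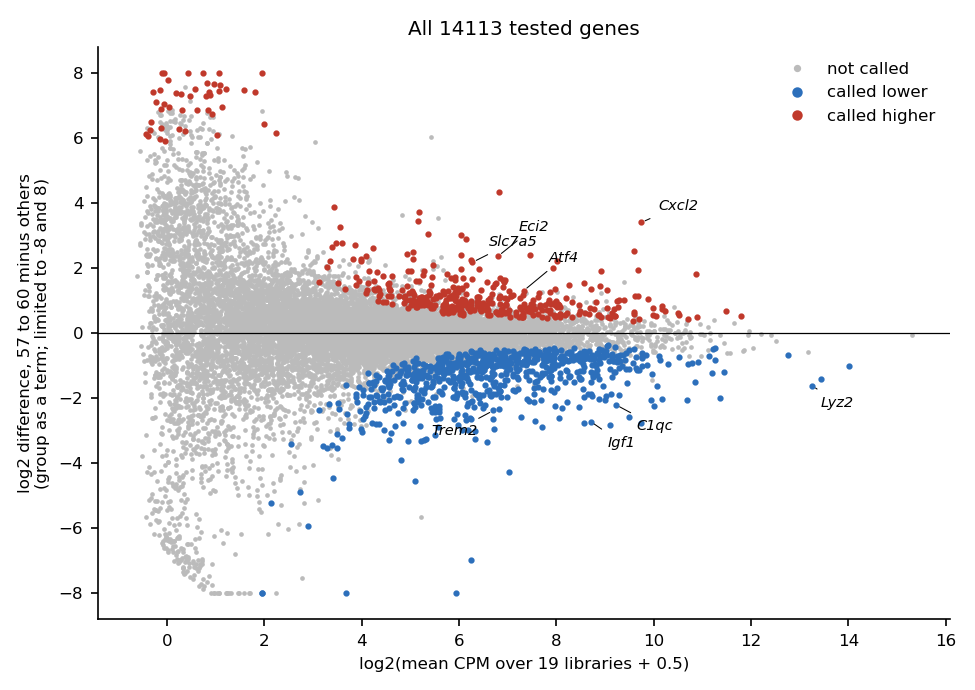
Each point is 1 of the 14113 tested genes, placed by its mean level over the 19 libraries, log2(CPM + 0.5), and by its log2 difference between libraries 57 to 60 and the other 15. Genes called lower reach to the most abundant transcripts, among them Lyz2 at −1.62, and Cxcl2 is the most abundant of the labelled genes called higher.

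The wider list of microglia and macrophage identity markers includes the 4 markers on which the libraries were selected. C1qc, Cx3cr1 and Trem2 are therefore among its called members, and its counts, median and sum are partly the values used in the choice. Of its 27 tested members 23 were called lower and none higher, with a median difference of −1.86. With sex as a term 20 were called lower, and with consecutive libraries summed 18. The summed level of the list was 4985, 3973, 3495 and 2337 CPM in libraries 57 to 60, and 7526 to 14470 CPM (median 11671) in the others, with no overlap. In bulk samples, fewer cells of a type and less RNA per cell cannot be told apart. Tyrobp, the signalling adaptor of Trem2, stood at 414, 280.1, 311 and 160.3 CPM against 567, 1182 and 1580 as lowest, median and highest of the others (−2.06 ± 0.25). Aif1, which encodes the calcium-binding protein Iba1 used to stain microglia, was at 82.0, 72.7, 90.3 and 33.9 CPM against 163, 433 and 954 (−2.75 ± 0.39). Both genes were lower in all 4 than in any of the 15. P2ry13, a purinergic receptor gene, was at 0 in all 4 libraries, and the others ran from 0 to 12.8 CPM. It was called lower, and a fold has no meaning there. Tmem119 and P2ry12, usual markers of microglia in the brain, were low everywhere: Tmem119 stood at 5.52 to 7.64 CPM in the 4 and at 0 to 17.2 in the others, and P2ry12 at 0 to 2.58 against 0 to 28.6. Neither was called. The 4 libraries still held macrophage transcripts in quantity. Lyz2, the lysozyme of myeloid cells, was at 4901, 4363, 3255 and 2643 CPM, against 8172 to 14112 (median 11716) in the others.

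Of the 19 myeloid transcription factors tested, 12 were called lower and none higher (median −1.59), 8 with sex as a term and 6 with consecutive libraries summed. Maf was at 216, 133, 210.3 and 84.9 CPM against 494, 986 and 1692 as lowest, median and highest of the others (−2.76 ± 0.36). Spi1 was at 23.8, 33.9, 12.5 and 18.1 CPM against 45.0, 95.6 and 163 (−2.09 ± 0.32). Maf, Mef2c, Irf5 and Spi1 were lower in all 4 than in any of the 15. Irf8 was lower within each group (−1.44 ± 0.26) with overlap across groups. Runx1 (0.17 ± 0.18), Bhlhe41 (−0.05 ± 0.21) and Sall1 (−0.13 ± 1.04) were not called. On the M-CSF axis receptor and ligand differed in opposite directions. Csf1r was at 75.4, 97.6, 68.6 and 52.3 CPM against 90.7, 194 and 343 (−1.45 ± 0.25). The ligand gene Csf1 was at 719.6, 999.7, 605 and 747 CPM against 152, 239.9 and 642 (1.55 ± 0.23), and each of the 4 was the highest of its group.

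The upstream window of C1qc is shown because its letters include GAGGAAGT, a sequence that binds ETS factors such as PU.1, whose own transcript Spi1 was lower. It is the 250 bases before the RefSeq start site, chr4:136892915-136893164 of GRCm38.p6 on the minus strand, 5′ to 3′, with the match (here as its reverse complement, 195 bases before the start) in capitals.
C1qc: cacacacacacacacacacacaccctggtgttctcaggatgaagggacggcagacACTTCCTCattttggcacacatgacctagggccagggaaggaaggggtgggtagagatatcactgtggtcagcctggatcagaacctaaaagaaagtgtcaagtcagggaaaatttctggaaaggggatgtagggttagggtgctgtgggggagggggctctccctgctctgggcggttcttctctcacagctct
On either strand GAGGAAGT was found in 3.01% of the 10848 tested genes with a RefSeq window of this length, in 6.6% of the 591 called lower and in 2.55% of the 314 called higher. Of the 20 identity markers with a window, C1qc alone had a match. These shares are a description of the letters in this window and say nothing of binding.

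Receptors, complement and lysosomal genes were lower with the identity markers. Of 20 complement genes tested, 9 were called lower and none higher, with the marker C1qc among the 9. The receptor genes C3ar1 and C5ar1 had larger differences than C1qa. C3ar1 was at 126, 117, 88.2 and 55.6 CPM against 409, 607 and 1118 as lowest, median and highest of the others (−2.82 ± 0.28). C5ar1 ran from 21.9 to 50.3 CPM in the 4 libraries against 113, 220.5 and 350.5 (−2.71 ± 0.33). C3, C1ra and Cfb were not called. Of 34 Fc and phagocytic receptors, 19 were called lower and 1 higher, and 17 were called lower with sex as a term and 12 with consecutive libraries summed. The immunoglobulin receptor Fcgr1 was at 4.07, 9.63, 8.89 and 11.7 CPM against 14.4, 48.8 and 110.3 (−2.64 ± 0.41). The scavenger receptor Msr1 was also below all 15 (−1.63 ± 0.21). Axl, a receptor for the bridging molecule Gas6, was the member called higher (85.5, 109, 145 and 163 CPM against 20.4, 54.0 and 91.2, 1.20 ± 0.26).

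All but 2 of 38 lysosomal genes had a difference below 0, and 21 were called lower (median −0.81). With sex as a term 18 were called, and with consecutive libraries summed 11. The list summed to 14629, 12543, 10922 and 9097 CPM in the 4 libraries and to 16181 to 25857 CPM in the others. Proteases and hydrolases differed to unlike degrees. Lgmn, an asparaginyl protease, was at 137, 70.2, 95.4 and 43.8 CPM against 161, 306 and 594 (−2.12 ± 0.38), and Gusb, the β-glucuronidase, was also below all 15 (−2.09 ± 0.28). The protease gene Ctsl differed less (−0.50 ± 0.15). Among membrane proteins Lamp1 was lower (−0.85 ± 0.15), while Lamp2 was at 341, 373, 361 and 325 CPM against 248, 348 and 405 (0.05 ± 0.13). Of 28 genes of the disease-associated microglia programme, 17 were called lower and 2, Axl and Csf1, higher. With sex as a term 16 were called lower, and with consecutive libraries summed 10. Igf1, a growth factor gene of this programme, stood at 140.0, 72.8, 87.3 and 28.6 CPM against 196, 537 and 992 (−2.73 ± 0.25), with no overlap. Apoe (−0.04 ± 0.21) and Spp1 (0.28 ± 0.23), both abundant members, were not called. Spp1 was at 2026, 2036, 2515 and 2587 CPM against 730.2, 2038 and 2776, so the ranges overlapped. Genes of lipid efflux and storage included 9 of 16 called lower (6 with sex as a term and 5 with consecutive libraries summed), among them the lipase Lpl at 562, 336, 188 and 89.0 CPM against 453, 1274 and 2056 (−2.26 ± 0.35).

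**Figure D3:**
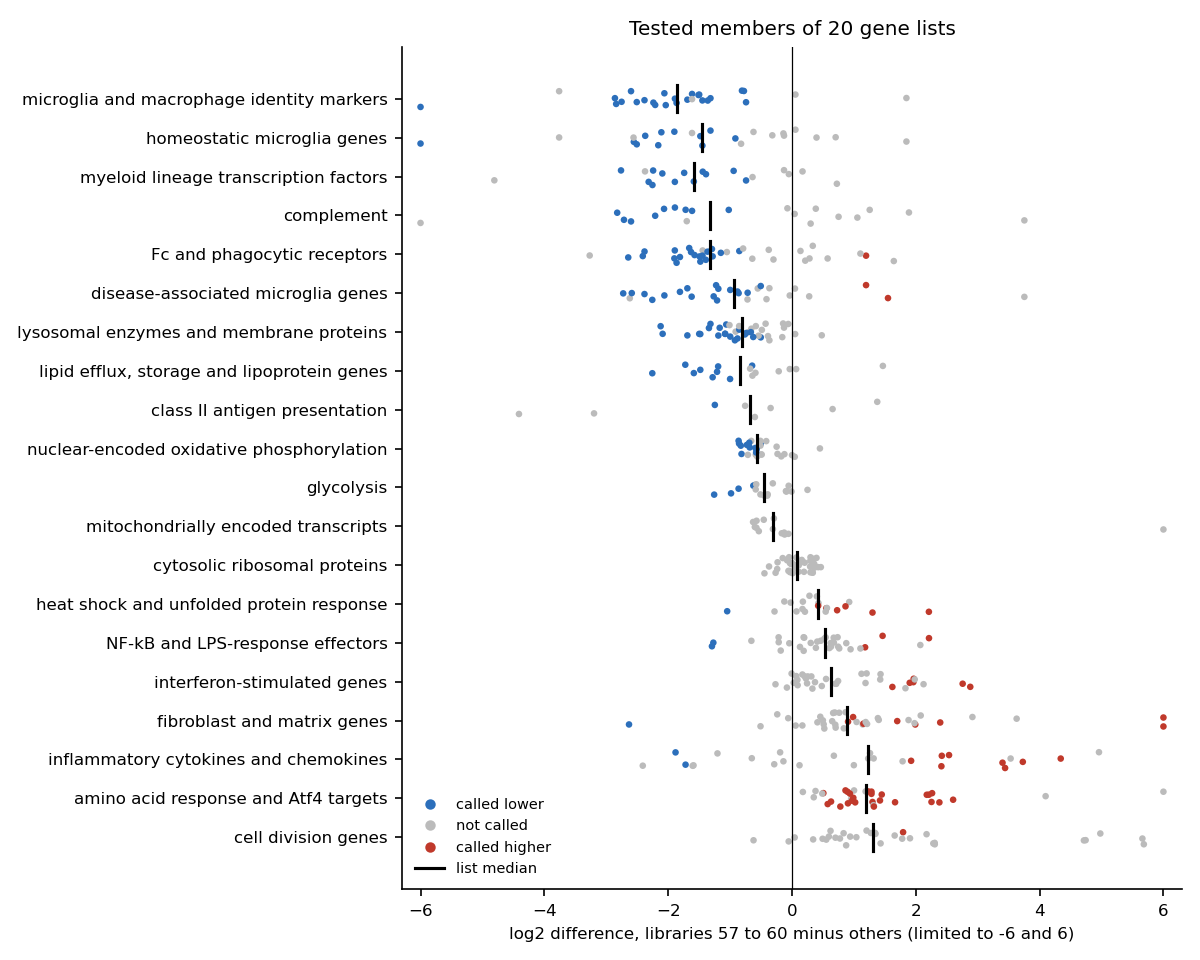
Log2 difference between libraries 57 to 60 and the other 15 for the tested members of 20 gene lists. Points are genes and vertical bars list medians, from −1.86 for the identity markers to 1.31 for cell division genes. The list of amino acid response and Atf4 targets was put together after values had been seen.

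Markers of other cell types did not move as one. Of 38 fibroblast and matrix genes, 34 had a difference above 0 (median 0.89), and 8 were called higher and 1 lower. With sex as a term 3 were called higher, and with consecutive libraries summed 2. With consecutive library numbers as a random effect in limma voom it was 12. Vcan, a matrix proteoglycan, was at 68.9, 195, 199 and 267 CPM against 14.6, 26.7 and 75.0 (2.39 ± 0.28). Col1a2, a type I collagen chain, was at 226, 264, 941 and 1025 CPM against 57.7, 106 and 351 (1.99 ± 0.44), high in the APP libraries of the set. Lrrc17, which gives most of this list's summed level, overlapped fully: 38414, 44163, 37116 and 33702 CPM against 21307, 35670 and 77878 (−0.06 ± 0.26). The list summed to 44628 to 53200 CPM in the 4 and to 32002 to 83008 in the others. S100a4, which fibroblasts and macrophages both express, was the member called lower (−2.63 ± 0.43). Of 17 pericyte and smooth muscle markers 12 had a difference above 0 (median 1.11). Of these, 3 were called higher, among them Tagln (623, 469, 478 and 327 CPM against 67.6, 186 and 364). It was 1 with sex as a term, 0 with consecutive libraries summed and 5 with the random effect. Of 12 ependymal, choroid plexus and meningeal markers 9 were above 0 (median 1.00) and 1 was called higher, but 0 with sex as a term. Their sum was 283 to 323 CPM in the 4 and 56.5 to 346 in the others. None of 17 endothelial or 10 neuronal markers was called, and the endothelial sum was 477 to 646 CPM against 339 to 878. Pecam1 alone gave 76.5% of that sum on average. Of 16 astrocyte markers 2, Aldoc and Glul, were called lower and none higher, and the list summed to 891 to 1199 CPM against 765 to 2517. Most of the astrocyte sum, 61.6% on average, was Vim. Gfap and Aldh1l1, which define astrocytes, were at 0 in all 4, and Gfap was low or at 0 in the others too, at most 8.99 CPM. Sox9, at 9.33, 24.0, 70.4 and 60.0 CPM against 7.72 to 54.5, and Gja1 (1.00 ± 0.32) were not called. Of 14 markers of border macrophages, monocytes and neutrophils, 5 were called lower and 1 higher, and the chemokine gene Pf4 was at 1027, 742, 804 and 554 CPM against 896, 3397 and 5030 (−1.99 ± 0.39). The part of other cell types in these differences was not tested.

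Transcripts of amino acid supply were higher as a group. This list was put together after values of the 4 libraries had been seen, so its counts describe the choice as well as the cells. Atf4 is the transcription factor of the integrated stress response, which is translated when amino acids run short or unfolded proteins accumulate, and its targets import and make amino acids and charge transfer RNAs. All 35 members had a difference above 0 and 25 were called higher (median 1.19), against 19 with sex as a term and 13 with consecutive libraries summed. The list summed to 8193, 8590, 8208 and 8531 CPM in the 4 libraries, a narrow range, and to 3279 to 6482 CPM (median 4615) in the others.

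Atf4 itself was at 278, 331, 303 and 284 CPM against 86.9, 116 and 199 as lowest, median and highest of the others (1.30 ± 0.17). Among importers, Slc7a5, the light chain of the LAT1 carrier, stood at 154, 243, 215 and 179 CPM against 22.7, 38.8 and 101 (2.18 ± 0.28). Slc1a5, a glutamine carrier, was at 63.2, 88.7, 80.5 and 108 CPM against 1.56, 19.2 and 30.9 (2.26 ± 0.39). In both genes all 4 libraries exceeded all 15. Slc7a11, the cystine carrier, was at 706, 1182, 761 and 1002 CPM against 41.2, 361 and 723 (1.45 ± 0.35), highest within each group with a small overlap across groups. Of the biosynthetic enzymes, the serine pathway gene Psat1 was at 327, 289.5, 407 and 429.6 CPM against 74.8, 159.7 and 287 (1.23 ± 0.25). Mthfd2, of mitochondrial folate metabolism, was at 211, 293, 238 and 195 CPM against 31.9, 112 and 170.3 (1.28 ± 0.25). Asparagine synthetase, Asns, overlapped and was not called (1.00 ± 0.35). The stress-response genes Trib3 (2.21 ± 0.45, at most 24.5 CPM in the others) and Gdf15 (298, 202, 207 and 87.8 CPM against 17.8, 41.5 and 74.2) exceeded all 15 in all 4 libraries. Chac1, a glutathione-degrading enzyme, was called higher (2.38 ± 0.67) with 51.3, 46.6, 26.1 and 46.4 CPM against 0, 7.03 and 26.8.

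The C/EBP-ATF response element TGATGNAA is bound by Atf4 with a C/EBP partner. On either strand it was found in 2.68% of the 10848 windows of tested genes, in 3.5% of the 314 genes called higher, in 3.05% of the 591 called lower and in 10 of the 28 list members with a window (35.7%). The list was made of known Atf4 targets, for which this element is part of the evidence, so the last share is not independent of the choice. The 2 called members with a match and the largest differences are shown, as the 250 bases before the start site in GRCm38.p6, 5′ to 3′ on the gene's strand, with matches in capitals. Chac1 lies at chr2:119350992-119351241 on the plus strand with 1 match, 193 bases before the start, and Slc7a11 at chr3:50443614-50443863 on the minus strand with 2 matches in opposite orientation, 66 and 47 bases before the start.
Chac1: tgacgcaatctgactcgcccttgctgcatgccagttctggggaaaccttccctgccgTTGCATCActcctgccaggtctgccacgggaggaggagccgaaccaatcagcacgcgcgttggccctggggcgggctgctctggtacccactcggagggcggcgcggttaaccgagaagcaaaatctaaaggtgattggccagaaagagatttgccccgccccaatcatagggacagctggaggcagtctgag
Slc7a11: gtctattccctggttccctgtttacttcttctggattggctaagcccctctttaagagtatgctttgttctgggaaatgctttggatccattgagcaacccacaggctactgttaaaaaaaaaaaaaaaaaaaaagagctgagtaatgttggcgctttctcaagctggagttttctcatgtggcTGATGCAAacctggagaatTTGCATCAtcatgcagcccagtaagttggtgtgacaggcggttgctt

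Of 20 heat shock and unfolded protein genes, 16 had a difference above 0 (median 0.41), though most were not called. The heat shock and unfolded protein list summed to 13162, 13706, 12394 and 12442 CPM against 9104 to 10922 CPM, with no overlap, and 6 of 20 members were called higher and 1, Sdf2l1, lower. Of the 6, Hsp90aa1, Hsp90ab1 and Hspd1 are chaperones, and Atf4, Ddit3 and Trib3 are stress-response regulators. With sex as a term 4 were called higher, with consecutive libraries summed 2, and by DESeq2 7. The mitochondrial chaperonin Hspd1 was at 844, 842, 841 and 821 CPM against 382, 505 and 699 (0.73 ± 0.15). Hspa5, the endoplasmic reticulum chaperone BiP, was at 3306, 3493, 2753 and 2460 CPM against 1843, 2190 and 2818 and was not called (0.40 ± 0.13), nor was Hsp90b1 (0.07 ± 0.12). The metallothionein Mt2 was at 3631, 3660, 4259 and 4622 CPM against 332, 1282 and 2333 (1.80 ± 0.30). Fth1, the ferritin heavy chain that stores iron in macrophages, was lower than in all 15, at 10635, 9296, 7816 and 8023 CPM against 11724, 16931 and 25871 (−1.02 ± 0.21). Nuclear-encoded subunits of oxidative phosphorylation had 12 of 28 members called lower (median −0.57), 6 with sex as a term and 2 with consecutive libraries summed. Mitochondrially encoded transcripts (13) and ribosomal protein genes (40) had none called. Of the cell cycle inhibitors, Cdkn1a (576, 552, 557 and 475 CPM against 646, 786 and 895) and Cdkn2a (39.6, 16.3, 30.5 and 22.7 CPM against 48.3, 92.3 and 118) were lower than in all 15. The wider list of senescence and growth arrest genes did not follow: of 17 tested, 2 were called lower and 4 higher (median 0.53). With sex as a term 3 were called lower and 1 higher.

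**Figure D4:**
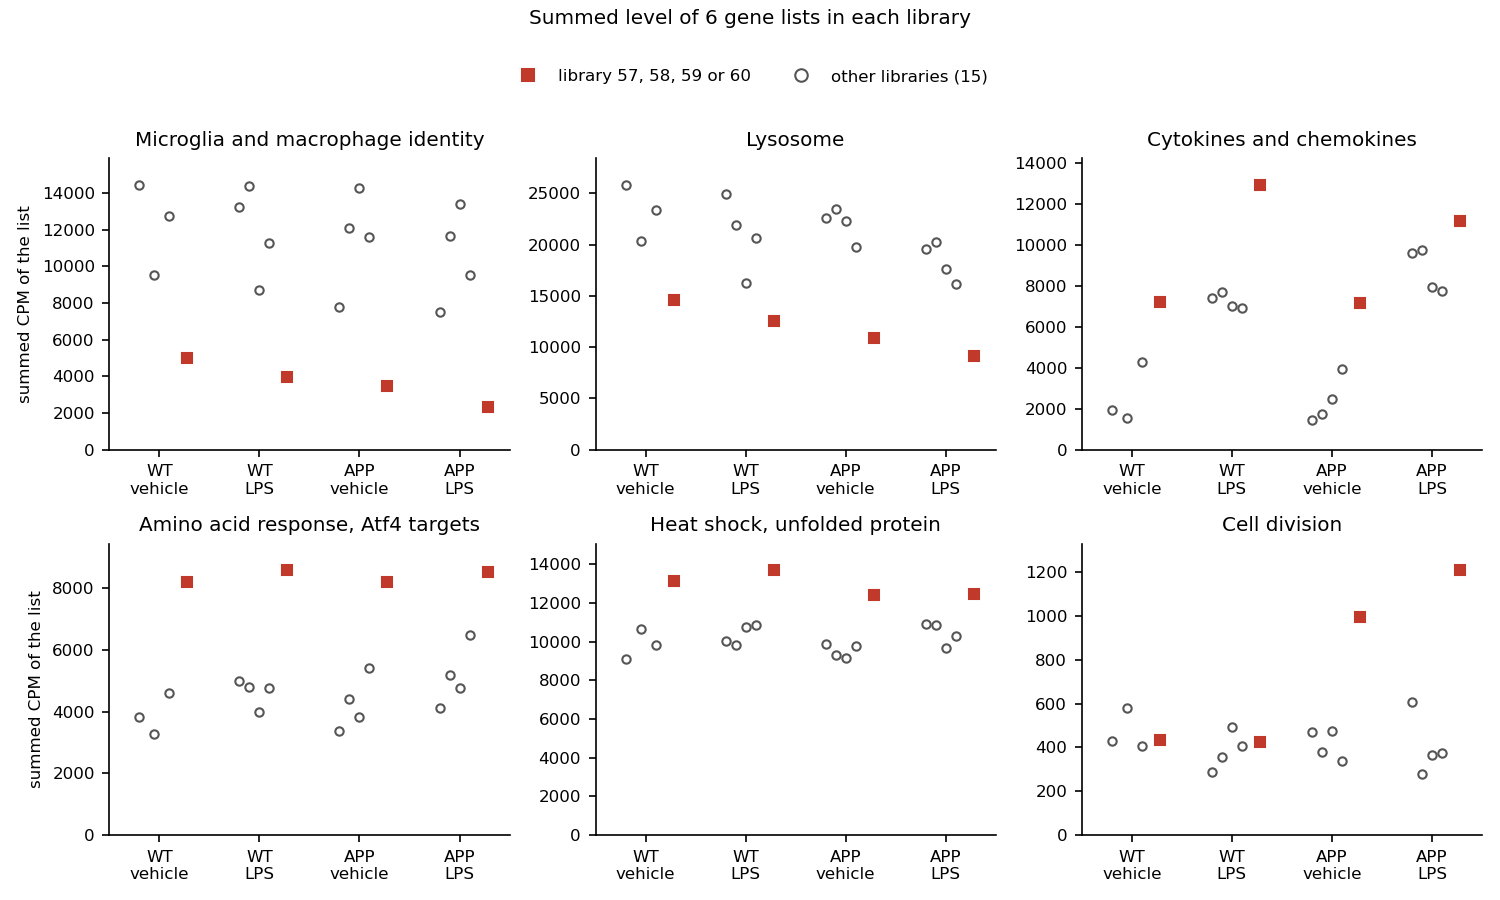
Summed CPM of 6 gene lists in each library, by genotype and treatment, on axes from 0. Squares are libraries 57 to 60 and circles the other 15. The squares lie below all circles for identity markers and lysosomal genes and above them for Atf4 targets and heat shock genes. For cell division genes the squares of APP, at 994 and 1210 CPM, lie above all circles, and those of WT do not.

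Inflammatory transcripts split by kind. Of 27 cytokines and chemokines, 8 were called higher and 2 lower (median 1.23), and 4 were called higher with sex as a term. Those higher attract neutrophils or signal through gp130: Cxcl1, Cxcl2, Cxcl3, Cxcl5, Il6 and Lif, with Ccl2 and Cxcl10. Cxcl2 was at 2168, 4084, 1381 and 2499 CPM against 6.56, 407 and 1195 as lowest, median and highest of the others (3.4 ± 0.58). Ccl2, the monocyte attractant, was at 1434, 2037, 1413 and 2068 CPM against 196, 617 and 1202 (1.92 ± 0.22). In both, the vehicle libraries 57 and 59 exceeded every LPS library outside the set. Tnf (24.3, 101, 22.2 and 58.3 CPM against 16.4, 51.3 and 128) and Il1b (70.9, 428, 131 and 437 CPM against 6.36, 197 and 729) were not called. The members called lower were Il1rn, the interleukin-1 receptor antagonist (−1.72 ± 0.32), and Ccl9 (−1.88 ± 0.43). Of 34 interferon-stimulated genes 6 were called higher and none lower, and 1 was called higher with sex as a term. Isg15 was at 687, 655, 1680 and 932 CPM against 42.2, 359 and 676 (1.90 ± 0.51), and Bst2 at 208, 259, 499.8 and 277 CPM against 173, 293 and 527 (−0.01 ± 0.23). The sum of the list was above its own group in the vehicle libraries 57 and 59, and within it in 58 and 60.

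The genes named next had the largest fitted differences among those called, beyond their own group in each of the 4 libraries, and with a mean of 10 CPM or more in whichever side was higher. Since 1 side alone had to reach that level, genes near 0 on the other side enter and their sizes are imprecise. The pool held 524 lower and 284 higher genes. Of the lower ones, Stap1, Cd180, Tlr13, Clec4a3 and Fgd2 belong to signalling and pathogen recognition in myeloid and B cells. Tlr13, a receptor for bacterial ribosomal RNA, was at 3.16, 4.62, 6.57 and 5.71 CPM against 22.8, 45.8 and 91.9 (−3.26 ± 0.35). Nxpe5 had the largest difference of the lower genes (3.86, 2.39, 2.66 and 0 CPM against 4.01, 43.5 and 117, −4.56 ± 0.78), and Crct1, Hnmt, Cela1, Sesn1, Tnfrsf13b and Fabp7 completed the lower 12, with differences from −4.27 to −3.28. Of the higher ones, Cxcl5, Cxcl3, Cxcl10, Cxcl2, Ifi44 and Gbp5 are inflammatory or interferon-induced. Igfbp5, an insulin-like growth factor binding protein, was at 29.6, 40.3, 340.1 and 505 CPM against 0.960, 8.24 and 123 (3.03 ± 0.68), higher in the APP libraries of the set. The remaining higher genes were Mcpt8, Fosl1, Rnf144a, Zscan4e and Mex3b. Mcpt8 and Fosl1 had a median of 0 CPM in the others, so their fitted differences are no measure of size: Mcpt8, a mast cell and basophil protease gene, was at 5.68, 2.88, 15.6 and 17.3 CPM against 0 to 3.30. Among the 12 lower, 12 higher and 4 marker genes, 28 in all, 10 lost their call with sex as a term. Another fit, with consecutive library numbers as a random effect, also lost 10. With consecutive libraries summed 4 of 26 lost it.

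The response to LPS inside the set was measured next, which the choice of libraries did not use. It compares 58 and 60 with 57 and 59, and sets that effect against LPS minus vehicle in the other 15. edgeR called 0 of 14113 genes (background 0%), 269 had an unadjusted p under 0.05, DESeq2 called 119 and limma voom 0. There are 9 pairs of a vehicle and an LPS library of the same genotype with consecutive numbers, and their deviations from the group means correlated at 0.149 to 0.475. With the set as a term the correlation was −0.196 for 57 and 58 and −0.25 for 59 and 60, and 0.0748 to 0.263 for the other 7 pairs. The set holds 1 library per group, so this term makes the deviations of its libraries cancel out. That pushes the correlations within the set to negative values, which therefore cannot show whether a pair shares a preparation. With these pairs as a block edgeR called 2 genes, mt-Nd4l (adjusted p = 2.15e-06) and Slc13a3 (adjusted p = 0.000144). mt-Nd4l was at 112, 0, 74.9 and 0 CPM in libraries 57 to 60 and at 0 to 264 CPM in the others, and Slc13a3 at 0, 1.25, 0 and 2.12 CPM against 0 to 387, so the fitted sizes rest on libraries at 0 and are no measure of the difference. For the 27 cytokines and chemokines the median log2 LPS effect was 1.95 in the other libraries and 0.53 in the set, with 25 of 27 differences below 0. For the 34 interferon-stimulated genes it was 1.05 and −0.24, with 32 of 34 below 0, and for the 32 NF-kB and LPS-response effectors 0.99 and 0.52, with 27 of 32 below 0. Over all genes tested the median difference was 0.03, and 6755 of 14113 were below 0. The other 15 were not alike in this. After LPS the interferon-stimulated sum was lower in library 52 (2432 CPM) than in 51 (2803), and it was higher in the other consecutive pairs outside the set. Vehicle libraries 41 and 51 stood at 2776 and 2803 CPM, against 1099 to 1529 in the remaining vehicle libraries outside the set. For cytokines and chemokines they stood at 4280 and 3953 CPM against 1442 to 2483. Ccl2 was at 1434 and 1413 CPM in the vehicle libraries 57 and 59, where the other vehicle libraries ran from 196 to 423, and at 2037 and 2068 after LPS, where the others ran from 617 to 1202. Its LPS effect was 0.53 ± 0.37 in the set and 1.73 ± 0.20 in the others. The difference was −1.20 ± 0.42 (unadjusted 95% interval −2.07 to −0.33, adjusted p = 1 by edgeR). Isg15 had effects of −0.50 ± 0.88 and 1.60 ± 0.47 and a difference of −2.11 ± 1.00 (−4.20 to −0.02, adjusted p = 1). Tnf did not share the pattern, with effects of 1.78 ± 0.52 and 1.5 ± 0.27 and a difference of 0.28 ± 0.58 (−0.92 to 1.48, adjusted p = 1). The LPS effect on Igf1 was −1.24 ± 0.38 in the set and −1.22 ± 0.19 in the others, a difference of −0.03 ± 0.42 (−0.90 to 0.85, adjusted p = 1). The genes with the smallest p in this comparison were P2ry12, Exoc3, Strip2, Dok2 and Clec4b1, each with an adjusted p of 1.

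**Figure D5:**
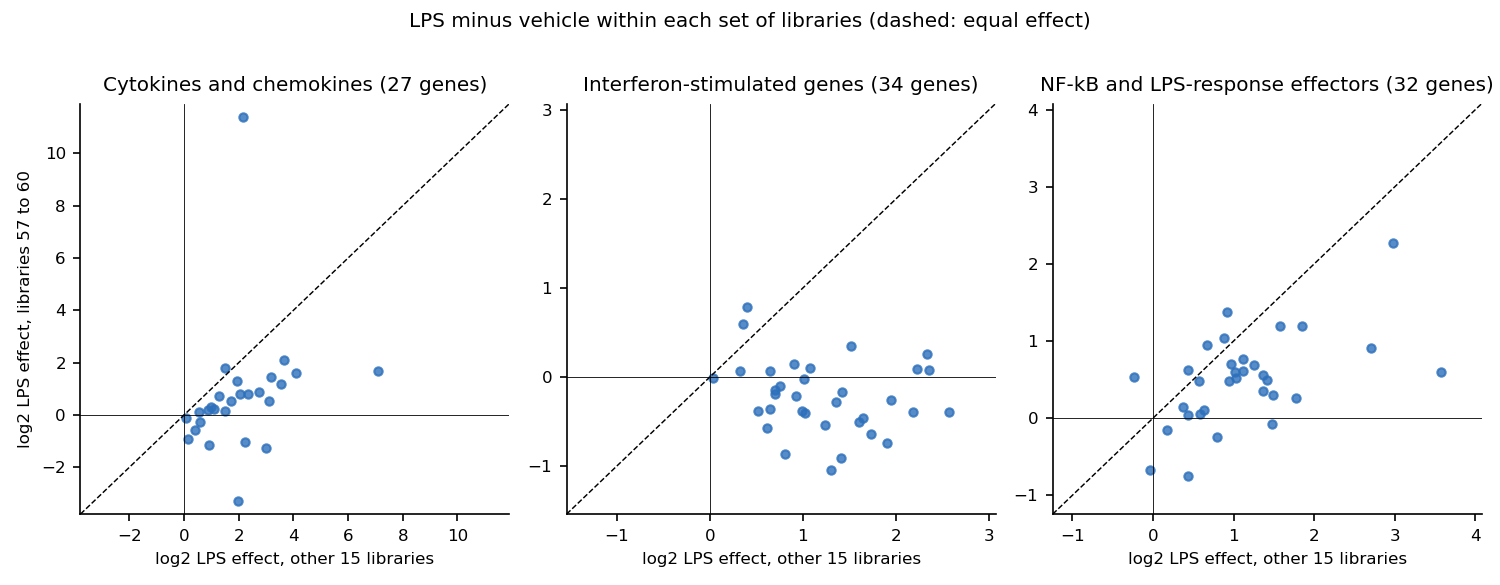
Log2 LPS effect of each gene in libraries 57 to 60 (vertical) against that in the other 15 (horizontal), for cytokines and chemokines, interferon-stimulated genes and NF-kB and LPS-response effectors. Points under the dashed line have a smaller effect in the set: 25 of 27, 32 of 34 and 27 of 32 genes. None of these differences passed the adjusted threshold.

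The difference between genotypes inside the set compares 59 and 60 with 57 and 58. Here edgeR called 2 of 14113 genes (0.0142%), both more reduced in the APP libraries of the set, and 364 had an unadjusted p under 0.05, while DESeq2 called 145 and limma voom 0. Tm6sf1, a transmembrane protein gene, was at 34.8, 20.4, 2.32 and 0.782 CPM in libraries 57 to 60, and the other libraries ran from 61.6 to 114 CPM in WT and from 31.8 to 167 in APP. APP minus WT was −4.19 ± 0.61 in the set and 0.03 ± 0.27 in the others, a difference of −4.22 ± 0.66 (adjusted p = 0.0185 by edgeR). Treml4, a receptor gene of the Trem family, was at 10.8, 5.46, 0 and 0.0460 CPM, against 9.37 to 26.2 in the other WT and 6.23 to 31.9 in the other APP libraries. Its fitted difference was −8.31 ± 1.28 (adjusted p = 0.0185 by edgeR), a size that depends on the libraries near 0 and is no bound. Neither gene was called without library 57, 59 or 60 or with replicate number as a block.

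Cell division genes were at higher levels in the APP than in the WT libraries of the set, and none of these differences passed the threshold. The list summed to 432 and 422 CPM in the WT libraries 57 and 58 and to 994 and 1210 CPM in the APP libraries 59 and 60, while the other 15 ran from 280.2 to 605 CPM. Between the set and the others 30 of the 32 genes had a difference above 0 (median 1.31), and 1, Top2a, was called higher by edgeR. DESeq2 called 5 higher, the fit with sex as a term 1 and the one with consecutive libraries summed 0. Top2a, the topoisomerase of dividing cells, was at 27.2, 34.9, 135 and 162 CPM. The median APP minus WT difference of the 32 genes was 2.0 in the set and −0.17 in the others, and 30 of 32 differed in that direction, with 0 called for this difference and 6 at an unadjusted p under 0.05. For 34 interferon-stimulated genes the same medians were 0.87 and −0.08, with 32 of 34 in that direction and 0 called. For 38 fibroblast and matrix genes they were 0.95 and 0.10, with 32 of 38 and 0 called. Identity markers and lysosomal genes went the other way. For 27 identity markers the medians were −0.52 in the set and −0.15 in the others, with 5 of 27 differences above 0. For lysosomal genes 5 of 38 were above 0, and for homeostatic microglia genes 14 of 23. The identity sum was 4985 and 3973 CPM in 57 and 58, and 3495 and 2337 CPM in 59 and 60. Over all genes 6823 of 14113 lay above 0. The matrix metalloproteinase Mmp3 was at 234, 548, 1926 and 2775 CPM against 149, 293 and 2291 in the others. As 59 and 60 have consecutive numbers, as do 57 and 58, genotype and library pair cannot be told apart within the set.

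The comparisons that the study was designed for were refitted with the set as a term. These fits did not use the pairs of consecutive numbers. The pairs were a block only in the comparison of LPS effects between the set and the others. LPS against vehicle called 0 genes in WT (background 0%, 696 at an unadjusted p under 0.05, 115 by DESeq2) and 2 in APP (0.0142%, 128 by DESeq2). The 2 in APP were Il1b, which rose by 3.49 ± 0.57 on the log2 scale (edgeR adjusted p = 0.0383), and Igf1, which fell by 1.39 ± 0.23 (edgeR adjusted p = 0.0383). APP against WT called 0 genes with vehicle (479 unadjusted, 75 by DESeq2) and 0 after LPS (589 unadjusted, 79 by DESeq2), both with a background of 0%. Without the set as a term edgeR called 0 in each. With libraries 57 to 60 left out it called 4 for LPS in APP (Ccl2, Il1b, P2ry12 and Xylt1) and 1 for APP against WT after LPS (P2ry12). The calls in APP varied from 0 to 6 when single libraries were left out, and were 0 without APP vehicle replicate 1, 2 or 3, APP LPS replicate 2, 3 or 4, or WT LPS replicate 1 or 2.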

How the data were processed

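Lexogen QuantSeq 3′ libraries with unique molecular identifiers and ERCC spike-ins were made from RNA of integrity above 8.5, per the labels' protocols. Per the submitters' processing notes, the authors used FastQC, Trimmomatic, kallisto and DESeq2, with no versions given. The deposited values are kallisto's estimated counts per gene symbol, as whole numbers, for 16941 genes in 19 libraries. The smallest total of a gene was 10. The build, the annotation and whether identifiers were collapsed were not given in the sources used here. PCR copies may therefore remain, and 0 entries were ERCC transcripts.

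The estimated counts were rounded, which changed none, and tested with edgeR 4.0.16 (R 4.3.3, quasi-likelihood, TMM scaling, filterByExpr on the groups, 14113 genes tested and 2828 not) with 4 group terms and 1 term for libraries 57 to 60. P-values were adjusted by Benjamini-Hochberg over all genes tested. The SE is the absolute log2 difference divided by the square root of the quasi-likelihood F statistic, and the 95% intervals were built from it. CPM values use TMM-adjusted totals, and 3 counts equal 0.0962 to 0.249 CPM, which covers counting error only. Alternatives used DESeq2 1.42.0, limma 3.58.1, other filters and scalings, left-out libraries, sex and pairs. Groups came from the sample titles. The label of WT LPS replicate 1 has library number 5 and its file number 6. Within a group no 2 libraries agreed within sampling noise (smallest chi-square per degree of freedom 85.9 over 36 pairings).

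The members and the gene lists were chosen with earlier results of these data known, and the list of Atf4 targets after the values had been seen. The named genes are the 4 markers, the 12 lower and 12 higher genes with the largest difference among those called, averaging 10 CPM or more on whichever side was higher, and beyond their own group in each of the 4 libraries, up to 4 members of each list by level, and genes called in a set interaction or the 5 with the smallest p. Other list members were named after their values were seen. Male libraries had more than 100 counts of Ddx3y. Promoter windows are RefSeq's, GRCm38.p6. The scripts were tested on simulated data.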

Additional observations from a re-analysis of the deposited data

Results flagged for a closer look

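Libraries standing far from the others of their group were looked for in 11 measures (6 list sums, the 4 markers and the total counts) over 44 groups, and 6 were found. Chance gives about 1 in 20 groups, but the markers chose the libraries, the Atf4 list was made after their values were seen and the other lists were chosen with earlier results known, so the 6 are values to look at and not a tally against that rate. The sum of Atf4 targets in WT LPS replicate 5 (library 58) was 8590 CPM, with the next WT LPS library at 4996. The cytokine and chemokine sum of the same library was 12958 CPM, with the next at 7711 CPM. Cell division genes summed to 994 CPM in APP vehicle replicate 5 (library 59), with the next at 475 CPM. Among libraries outside the set, the cell division sum of WT vehicle replicate 2 was 582 CPM with the next at 432 CPM. The fibroblast and matrix sum of APP LPS replicate 4, most of it Lrrc17, was 83008 CPM with the next at 48299 CPM. Gpr34 in APP vehicle replicate 3 was at 36.8 CPM with the next at 11.4 CPM.

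The APP minus WT difference in libraries 57 to 60 departed from that in the others for Tm6sf1 by −4.22 and for Treml4 by −8.31 on the log2 scale, by edgeR's test of the difference itself. Treml4 was at 0 and 0.0460 CPM in libraries 59 and 60, so its fitted size is no measure of the difference. Both calls were lost without library 57, 59 or 60, and genotype and library pair cannot be told apart within the set.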

How the results depend on the processing

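The 1165 genes called between libraries 57 to 60 and the others became 1730 with DESeq2 and 1590 with limma voom, which put 56.4% of its calls higher against 35.3% in edgeR. They became 721 with sex as a term and 476, 21.6% of them higher, with consecutive libraries summed. Leaving out single libraries gave 628 to 1333. Correlations of same-numbered libraries were −0.136 to 0.079 in WT, where the numbers did not pair the libraries, and 0.217 to 0.475 in APP, where each number joins consecutive libraries. Those of all 9 consecutive pairs were 0.149 to 0.475. With the replicate block 3 genes were called, since number 5 holds only libraries of the set and library 57 alone then carries the difference. The block gave 0 calls for LPS in APP and 0 for the genotype difference between sets. All 1165 genes kept their sign where tested, except 65 with the block and 1 with sex as a term.

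DESeq2 called 119 genes for the LPS difference between sets, 145 for the genotype difference, 115 and 128 for LPS in WT and APP, and 75 and 79 for genotype with vehicle and after LPS. limma voom called 0 for the genotype difference. Consecutive library numbers as a block gave 2 for the LPS difference (mt-Nd4l and Slc13a3). Without the set as a term LPS in APP gave 0, and with 57 to 60 left out 4, with 1 for genotype after LPS. Leaving out single libraries gave 0 to 1 for LPS in WT, 0 to 6 in APP, 0 to 1 for the LPS difference and 0 to 3 for the genotype difference. Of 296 list medians under other settings 3 turned: oligodendrocyte markers, 0.14, to −0.34 and −0.31 without APP vehicle or APP LPS replicate 5 (at most 0.71, without WT LPS replicate 5), and lymphocyte markers, 0.98, to −0.32 without WT vehicle replicate 4 (at most 2.12, without APP vehicle replicate 5). The cause was not tested. Genes under about 1 CPM are limited by depth.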
